A study of Mus musculus with 8 samples.

Results

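The 68 genes described here were strongly lower in CTCF-K20R than in WT cells both in mouse embryonic stem cells (mESCs, day 0) and in the embryoid bodies (EBs) grown from them (day 4). They were chosen on the measured values themselves. A gene was taken when its mean over the 2 WT libraries was at least 30 normalized counts on each day and when the ratio of the means, (CTCF-K20R + 1)/(WT + 1), was at most 0.4 on each day. Of 18094 genes in the deposited table, 11827 met the WT minimum and 68 also met both ratios, after the Y-linked genes Eif2s3y, Ddx3y, Uty and Uba1y had been left out. Because the ratios chose the genes, the differences between genotypes are given below as a description and are not tested.

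RNA-seq was done on 8 libraries, 2 for each of WT mESCs, CTCF-K20R mESCs, WT day 4 EBs and CTCF-K20R day 4 EBs. All cells derived from E14Tg2A, a male mESC line, and were kept on mouse embryo fibroblasts inactivated with mitomycin C, in serum with LIF and the inhibitor pair known as 2i. CTCF-K20R cells carried a CRISPR/Cas9 point mutation that turns lysine 20 of CTCF into arginine, and the mutant cells were picked as targeted colonies, so that the mutation and the history of a clone cannot be told apart. EBs formed in hanging drops in medium with serum and without LIF. How many clones stood behind the 2 CTCF-K20R libraries of a day was not given in the sources used here.

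CTCF is a zinc finger protein that binds DNA at its own motif and, with cohesin, anchors chromatin loops and domain borders, by which enhancers are brought to some promoters and kept from others. It also occupies imprinting control regions, where only 1 parental copy is bound. mESCs are pluripotent cells, and in EBs without LIF they leave pluripotency and form primitive streak and mesoderm, the layer that gives rise to heart, muscle and blood. T (Brachyury) and Lef1, both among the 68 genes, act in that transition.

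Library totals ran from 19412659 to 21311513 normalized counts, and 3 reads corresponded to 2.49 to 3.45 normalized counts, which was taken as the limit of detection. The 2 WT libraries of a day differed by less than the sampling noise (mean squared difference 0.311 times that of independently drawn reads in mESCs and 0.273 times in EBs), and were counted as 1 sample in every test. The CTCF-K20R pairs differed by 4.00 and 4.35 times the sampling noise. p-values therefore measure the spread between the CTCF-K20R libraries, which may be technical. Ctcf itself, whose RNA the point mutation need not alter, stood at 3971 and 3938 normalized counts in WT and 4610 and 4408 in CTCF-K20R mESCs, and at 4241 and 4256 in WT and 4926 and 4771 in CTCF-K20R EBs. The pluripotency factor Pou5f1 lay between 23485 and 24703 and Nanog between 15415 and 16549 in the 4 mESC libraries, and in EBs Pou5f1 was at 12595 and 12696 in WT and 21940.1 and 21590.1 in CTCF-K20R. The Y-linked genes that were left out were near 0 in the CTCF-K20R libraries, with Eif2s3y at a mean of 1326 in WT and 4.61 in CTCF-K20R mESCs, so the genotypes also differed in this respect.

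The ratio limit alone was met by 1.81% of the 11827 genes in mESCs (214 genes) and by 4.73% in EBs (560 genes). A further 146 genes met it in mESCs only and 492 in EBs only, whereas only 9 genes had ratios of at least 2.5 on both days. Among the 68 genes the median ratio was 0.310 in mESCs (range 0.0078 to 0.3997) and 0.231 in EBs (0.02002 to 0.398). The ratio was under 0.2 for 14 genes in mESCs and for 27 in EBs, and it was lower in EBs for 43 genes and in mESCs for 25. On each day no CTCF-K20R value overlapped the WT values in any of the 68 genes, the former being the lower ones, against 40.3% of all tested genes in mESCs and 41.7% in EBs, a count that the ratio limit itself largely fixes. The limma fit called 52 of the 68 genes lower in mESCs (2.6% of all genes tested) and 63 in EBs (8.65%), and nothing is read from those counts, since the same contrasts chose the genes. Just inside the ratio limit were Fignl2 (0.3997), Fkbp6 (0.399) and Tnfrsf8 (0.398), and just outside it were Mast4 (0.401), Cdh13 (0.405) and Lrguk (0.405), each by the larger of its ratios, so the border of the group falls within a continuum.

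**Figure D1:**
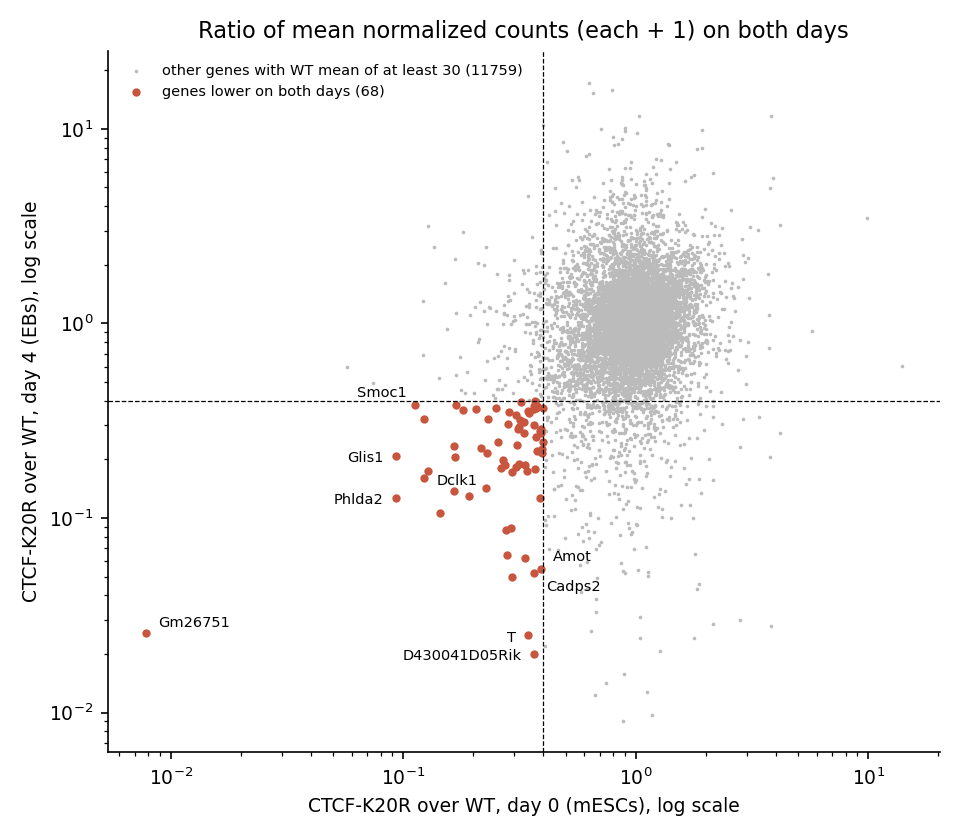
Ratio of CTCF-K20R to WT mean normalized counts (each + 1) in mESCs (x axis) and in EBs (y axis), both on log axes, for the 11827 genes that met the WT minimum, with the 68 genes in colour and the limit of 0.4 as dashed lines. The 68 genes fill the corner under the limit on both axes and run down to 0.0078 in mESCs and 0.02002 in EBs.

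Most of the 68 genes were modestly expressed in WT mESCs and higher in WT EBs. The median WT level was 100.8 normalized counts in mESCs and 295 in EBs, against 692 and 685 for the 11827 genes, and the median CTCF-K20R level was 27.9 and 52.6. The 68 genes comprise 64 protein-coding genes, 2 lincRNAs (Gm16973 and Gm26751), 1 antisense RNA (4732440D04Rik) and 1 processed transcript (D430040D24Rik). Whether the counting used the strand was not given in the sources used here, and 37 of the 68 genes overlap an annotated gene on the opposite strand, so that reads of both cannot be told apart there. In bulk RNA, fewer cells of a type and less RNA per cell cannot be told apart either. The groups by role that follow were put together from the genes' known functions after their values had been seen.

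Transcription regulators made up 8 of the 68 genes, with mean levels from 6.30 to 36.1% of WT in mESCs and 2.49 to 34.8% in EBs. T had 73.2 and 72.6 normalized counts in the WT mESC libraries and 25.1 and 24.1 in the CTCF-K20R ones, and 20696 and 20904 in WT EBs against 520.3 and 515 in CTCF-K20R EBs. T is the T-box factor that marks the primitive streak and early mesoderm, and its level was 33.7% and 2.49% of WT in mESCs and EBs, with no overlap between genotypes on either day. The values of Lef1 were 221 and 230.2 in WT mESCs, 80.5 and 75.3 in CTCF-K20R mESCs, 2402 and 2353 in WT EBs and 804 and 850.5 in CTCF-K20R EBs. Lef1, the DNA-binding partner of β-catenin in WNT signalling, thus kept nearly the same share of the WT level, 34.5% and 34.8%, while the level itself was far higher in EBs of both genotypes. In mESCs Fos stood at 3261 and 3260.0 in WT and at 1132 and 1085 in CTCF-K20R libraries, and in EBs at 339.6 and 324 and at 48.5 and 65.5. Fos is an immediate-early subunit of the AP-1 factor whose RNA responds quickly to serum and handling, and all 4 CTCF-K20R libraries lay below the WT libraries of their day. For Glis1, the mESC libraries gave 32.9 and 27.5 (WT) and 1.07 and 2.73 (CTCF-K20R), and the EB libraries gave 104 and 116 (WT) and 7.89 and 36.3 (CTCF-K20R). Glis1, a Krüppel-like zinc finger factor, was at or under the limit of 3 reads in both CTCF-K20R mESC libraries, at least 9.07-fold lower than WT, and its CTCF-K20R EB libraries lay far apart from each other. The POU factor Pou6f1 was at 31.7% and 31.8% of WT in mESCs and EBs, and the homeodomain gene Homez at 31.0% and 28.7%. Mxd4, a MAX partner that opposes MYC, was at 36.1% and 17.7%, and Mn1, a transcriptional coregulator, at 29.7% and 17.8%.

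Signalling genes, receptors and regulators of the cytoskeleton formed the largest group by role, with 16 genes at 11.0 to 38.4% of WT in mESCs and 5.47 to 39.6% in EBs. Amot was measured at 95.9 and 100.2 in WT mESCs and 31.1 and 44.2 in CTCF-K20R mESCs, then at 25117 and 25041 in WT EBs and 1358 and 1387 in CTCF-K20R EBs. Amot, an X-linked junction scaffold that holds the coactivator YAP in the cytoplasm, was by mean the most abundant of the 68 genes in WT EBs, and both CTCF-K20R EB libraries were at about the same low level, 5.47% of WT by mean. Dclk1 had 72.2 and 73.1 normalized counts in the WT mESC libraries and 5.91 and 10.1 in the CTCF-K20R ones, and 1164 and 1176 in WT EBs against 193 and 179 in CTCF-K20R EBs. Dclk1, a microtubule-associated kinase of the doublecortin family, was among the lowest on both days at 11.0% and 15.9% of WT. The values of Shisa2 were 147 and 148 in WT mESCs, 24.3 and 41.1 in CTCF-K20R mESCs, 420.3 and 441 in WT EBs and 67.7 and 53.2 in CTCF-K20R EBs. Shisa2 holds back the maturation of WNT and FGF receptors, and its CTCF-K20R values were well below WT on both days. In mESCs Spata13 stood at 933 and 871 in WT and at 334 and 345 in CTCF-K20R libraries, and in EBs at 2588 and 2587 and at 828 and 1111. Spata13, a guanine nucleotide exchange factor for small GTPases, was closer to the limit, at 37.6% and 37.5% of WT, and its CTCF-K20R libraries were well separated from WT. For Elmo1, the mESC libraries gave 403 and 409 (WT) and 131 and 127 (CTCF-K20R), and the EB libraries gave 1475 and 1472 (WT) and 589.6 and 577 (CTCF-K20R). Elmo1 works with DOCK proteins to activate RAC, and its share of the WT level was 31.9% in mESCs and 39.6% in EBs.

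Nhs was measured at 111 and 114 in WT mESCs and 19.4 and 7.65 in CTCF-K20R mESCs, then at 393 and 381 in WT EBs and 65.0 and 68.1 in CTCF-K20R EBs. Nhs, an X-linked regulator of actin, was at 11.98% and 17.2% of WT, and Arhgap6, an X-linked GTPase-activating protein, at 11.2% and 31.7%. Plekha6 had 320.3 and 314 normalized counts in the WT mESC libraries and 67.1 and 125 in the CTCF-K20R ones, and 195 and 242 in WT EBs against 111 and 35.5 in CTCF-K20R EBs. In Plekha6, which encodes a pleckstrin homology domain protein, the CTCF-K20R EB libraries differed by over 2-fold between themselves and remained under WT. Among ligands and receptors, Tgfb2, a TGF-β family ligand, was at 32.2% and 18.4% of WT, and the TNF-receptor family members Ltbr and Tnfrsf8 were at 32.5% and 31.0% and at 36.3% and 38.9%, in mESCs and EBs in turn. The cytokine receptor chain Il2rg was at 36.5% and 24.1% and the chemerin receptor Cmklr1 at 31.2% and 18.5%. Igfals, which encodes a binding partner of circulating insulin-like growth factors, was at 32.3% and 25.5%, and the regulators of G protein signalling Rgs3 and Rgs17 were at 28.2% and 34.9% and at 21.2% and 31.9%.

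**Figure D2:**
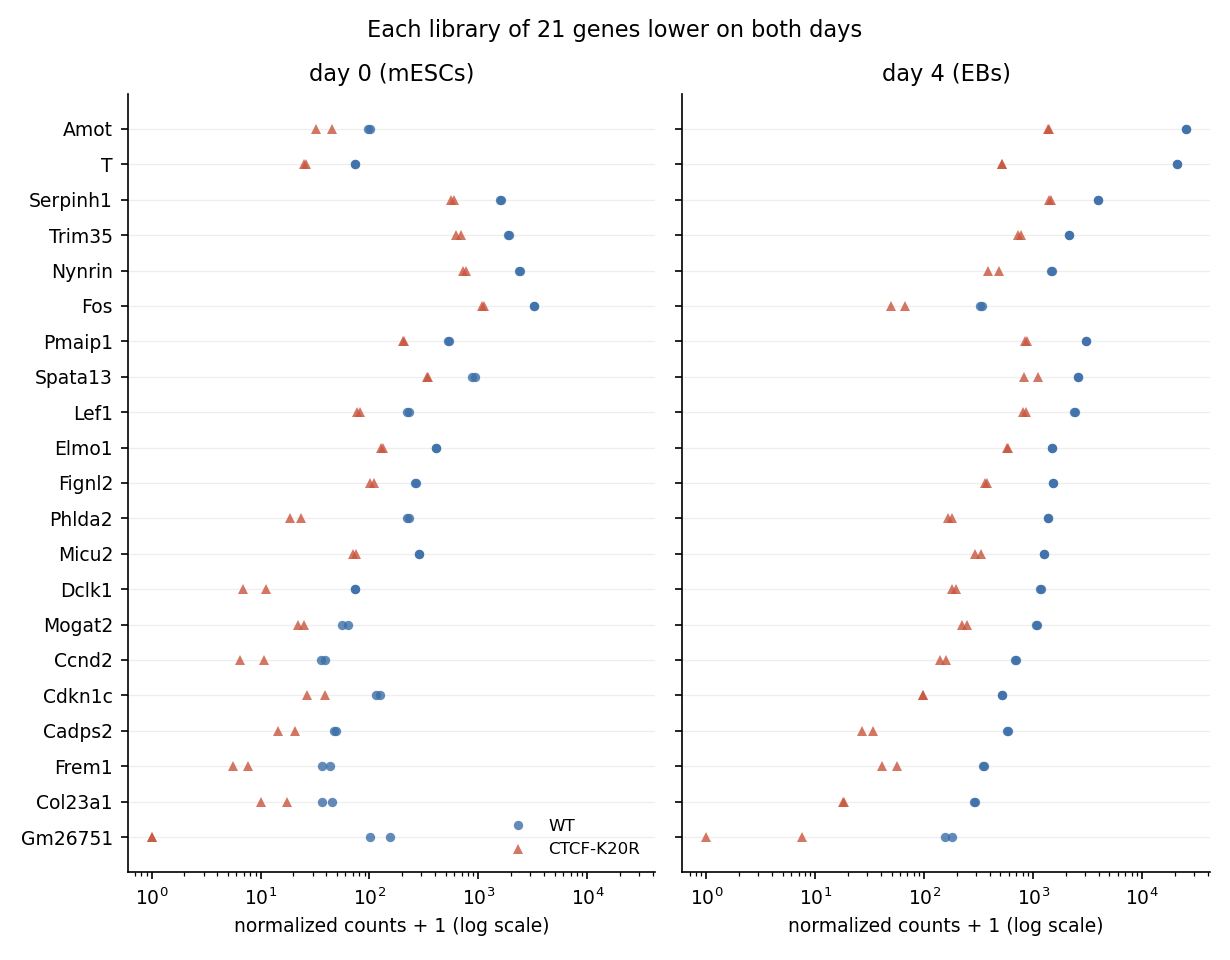
Normalized counts per library (log axis, value + 1) of 21 of the 68 genes, with 1 point for each library in WT and CTCF-K20R mESCs and EBs. The CTCF-K20R points lie below the WT points of the same day for every gene shown, and the WT points of a day overlie each other for nearly all genes.

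Genes of the extracellular matrix, secretion and the cell surface numbered 9, counting the actin-binding gene Pdlim4 with them. They were at 11.2 to 38.1% of WT in mESCs and 5.90 to 37.8% in EBs. The values of Serpinh1 were 1593 and 1574 in WT mESCs, 591 and 562 in CTCF-K20R mESCs, 3918 and 3923 in WT EBs and 1379 and 1457 in CTCF-K20R EBs. Serpinh1 encodes the chaperone that folds collagen in the endoplasmic reticulum, and its share of the WT level was alike on both days (36.4% and 36.2%). In mESCs Tgfbi stood at 497 and 519 in WT and at 97.9 and 95.5 in CTCF-K20R libraries, and in EBs at 67.2 and 65.7 and at 6.85 and 8.72. Tgfbi, a matrix protein induced by TGF-β, was lower in EBs than in mESCs in both genotypes. For Frem1, the mESC libraries gave 42.6 and 35.4 (WT) and 4.61 and 6.67 (CTCF-K20R), and the EB libraries gave 345 and 354 (WT) and 39.6 and 55.0 (CTCF-K20R). Frem1, a basement membrane protein, was higher in EBs in both genotypes and at 14.5% and 13.5% of WT. Col23a1 was measured at 35.6 and 44.6 in WT mESCs and 16.4 and 9.12 in CTCF-K20R mESCs, then at 293 and 287 in WT EBs and 17.5 and 16.8 in CTCF-K20R EBs. Col23a1, a transmembrane collagen, stood at 31.8% of WT in mESCs and at only 5.90% in EBs. Smoc1, a secreted calcium-binding matrix protein, went the other way, with 11.2% of WT in mESCs and 37.8% in EBs. The glypican Gpc6 was at 29.2% and 23.6%, the secreted immunoglobulin-domain protein Igsf10 at 23.6% and 36.6%, the actin-binding protein Pdlim4 at 36.6% and 21.8% and the membrane protein Emp3 at 38.1% and 26.7%.

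The fibroblasts on which mESCs were grown also make matrix RNA, so a list of 14 fibroblast markers, 11 of them tested, was read beside these genes. The summed level of the 14 markers was 54801 to 55392 normalized counts in WT mESCs and 49153 to 49528 in CTCF-K20R mESCs. In EBs the sum was 54472 to 54638 in WT and 6494 to 7131 in CTCF-K20R libraries. Most of that sum was Fn1, with means of 47024 in WT mESCs, 44732 in CTCF-K20R mESCs, 46052 in WT EBs and 3789 in CTCF-K20R EBs, so the sum follows Fn1 rather than the list. In mESCs 1 of the 11 was called lower (Thy1) and none higher by limma (1 higher at an unadjusted p under 0.05), and in EBs 4 were called lower (Fn1, Prrx1, Vim and Postn) and 2 higher (Col3a1 and Thy1). Of the 14 markers in the list, Twist2, Dcn, Col3a1, Postn and Lum were at 0 in both WT mESC libraries, and Twist2, Dcn and Postn in both CTCF-K20R mESC libraries. Others of the 14 were present in mESCs, such as Col1a1 at 17.4 and 16.02 in WT and 34.3 and 32.2 in CTCF-K20R libraries, and Col5a2 at 26.4 and 26.1 in WT and 10.6 and 66.6 in CTCF-K20R libraries. In EBs Lum was at 0 in both WT libraries and Postn in both CTCF-K20R libraries. The part of fibroblasts in the matrix genes was not tested on either day.

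Growth control and cell death were represented by 4 genes, at 8.95 to 38.5% of WT in mESCs and 12.6 to 28.1% in EBs. Pmaip1 had 521 and 530.1 normalized counts in the WT mESC libraries and 199.9 and 205 in the CTCF-K20R ones, and 3029.8 and 3044 in WT EBs against 834 and 875 in CTCF-K20R EBs. Pmaip1 encodes NOXA, a BH3-only protein that promotes apoptosis, and its CTCF-K20R libraries lay below WT on both days. The values of Ccnd2 were 35.1 and 37.8 in WT mESCs, 9.70 and 5.49 in CTCF-K20R mESCs, 687 and 681 in WT EBs and 158 and 138 in CTCF-K20R EBs. Ccnd2, the D-type cyclin that drives entry into S phase, was near 20% of WT by mean on both days (20.8% and 21.6%). In mESCs Cdkn1c stood at 114 and 124 in WT and at 38.5 and 25.7 in CTCF-K20R libraries, and in EBs at 521 and 520.1 and at 96.5 and 96.1. Cdkn1c encodes p57, an inhibitor of cyclin-dependent kinases that is expressed from the maternal copy. For Phlda2, the mESC libraries gave 219 and 231 (WT) and 22.5 and 17.8 (CTCF-K20R), and the EB libraries gave 1355 and 1355 (WT) and 178 and 165 (CTCF-K20R). Phlda2, a maternally expressed gene that restrains placental growth, was 11.2-fold lower in CTCF-K20R mESCs and 7.92-fold lower in CTCF-K20R EBs.

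Cdkn1c (chr7:143458339-143461050, - strand) and Phlda2 (chr7:143501545-143503150, - strand, GRCm38) are neighbours in the imprinted Kcnq1 domain, 40.5 kb apart. Between them lies Slc22a18, an imprinted transporter gene, at means of 62.8 in WT and 9.07 in CTCF-K20R mESCs, which did not pass the limma test after Benjamini-Hochberg adjustment (log2 fold change -2.67, SE 0.847, adjusted p = 0.0954), nor in EBs (log2 fold change -1.46, SE 0.847, adjusted p = 0.225). Kcnq1ot1, the noncoding RNA of the paternal copy that silences the domain, had means of 823 in WT and 884 in CTCF-K20R mESCs (log2 fold change 0.10, SE 0.126, adjusted p = 0.646), and of 824 and 873 in EBs (log2 fold change 0.08, SE 0.126, adjusted p = 0.638). Nap1l4, next to Phlda2 on its other side, had log2 fold changes of 0.08 in mESCs and -0.14 in EBs, and neither was called. Of the 30 other imprinted genes tested, 1 was called lower in mESCs (Snrpn) and 3 higher (Plagl1, Usp29 and Ndn), and in EBs 6 were called lower (Grb10, Slc38a4, Peg10, Peg3, Ndn and Igf2) and 2 higher (Plagl1 and Snrpn, whose symbol stands for 2 gene identifiers).

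**Figure D3:**
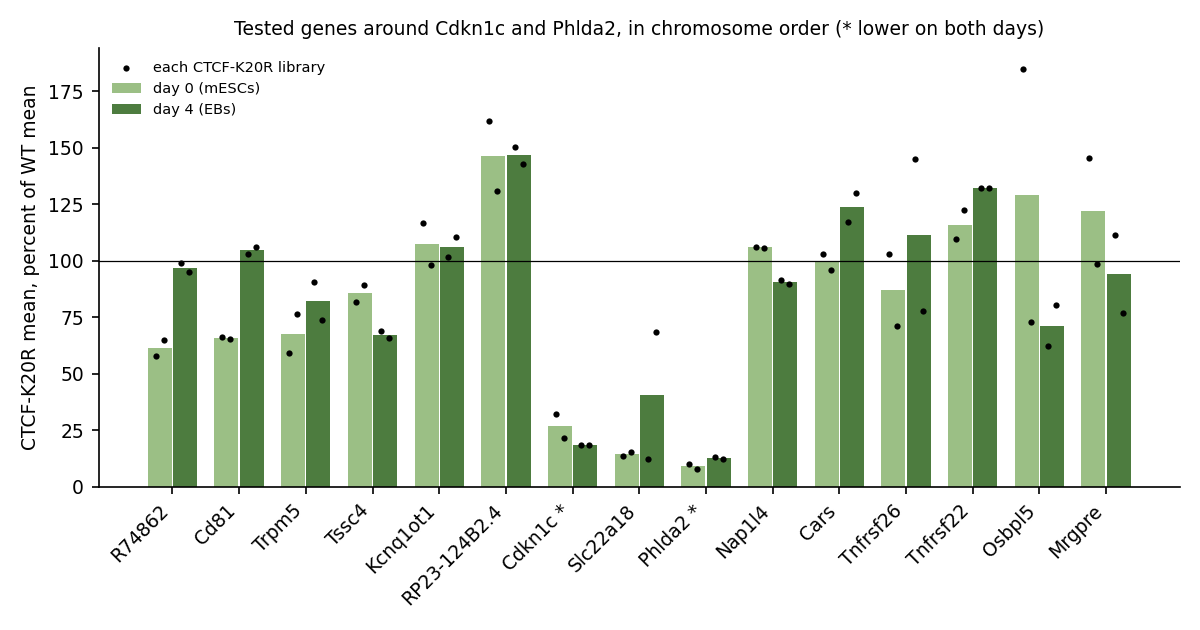
CTCF-K20R mean as a percentage of the WT mean in mESCs and EBs for tested genes around Cdkn1c and Phlda2 on chromosome 7. Bars stand in chromosome order, with a dot for each CTCF-K20R library and a line at the WT level. Cdkn1c and Phlda2 lie far below the WT level on both days, and Slc22a18 between them is also below it. Kcnq1ot1 and Nap1l4 lie near the WT level, and Cars is at 99.3% in mESCs and 123.5% in EBs.

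Promoter sequences of the 68 genes were looked at in the RefSeq table (GRCm38.p6), which held 49 of them. The TATA box letters TATAAA stood on the gene's own strand, with their first base 20 to 45 bases before the start site, in 5 of the 49 promoters (10.2%), against 78 of 8812 promoters (0.885%) of genes that met the WT minimum. That window was set after the positions had been seen, and the match is a description of the letters only. The 5 promoters are printed because they share these letters at a like distance although the genes have different roles: Fos, Phlda2, Tgfb2, Emp3 and Apobec2, an APOBEC-family gene. Each line gives the 150 bases before the start site, 5′ to 3′ on the gene's strand, with TATAAA in capitals. The start sites are those of RefSeq, which can differ from the GENCODE gene ends used elsewhere.
Fos: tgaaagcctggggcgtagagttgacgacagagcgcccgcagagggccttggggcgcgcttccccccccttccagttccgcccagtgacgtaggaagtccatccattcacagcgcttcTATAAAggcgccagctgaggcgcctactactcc
Phlda2: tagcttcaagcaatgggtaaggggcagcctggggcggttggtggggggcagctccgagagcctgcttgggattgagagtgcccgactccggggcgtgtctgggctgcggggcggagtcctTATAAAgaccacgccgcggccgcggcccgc
Tgfb2: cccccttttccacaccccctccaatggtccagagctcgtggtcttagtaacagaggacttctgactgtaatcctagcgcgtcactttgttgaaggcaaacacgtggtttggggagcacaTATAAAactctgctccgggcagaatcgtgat
Emp3: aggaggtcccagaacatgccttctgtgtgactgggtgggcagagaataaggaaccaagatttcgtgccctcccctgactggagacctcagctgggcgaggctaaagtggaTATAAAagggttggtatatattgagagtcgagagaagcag
Apobec2: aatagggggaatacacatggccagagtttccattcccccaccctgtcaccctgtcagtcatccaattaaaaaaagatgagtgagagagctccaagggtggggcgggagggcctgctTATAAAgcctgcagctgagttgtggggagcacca
They lie at chr12:85473740-85473889 (+ strand), chr7:143502525-143502674 (- strand), chr1:186705990-186706139 (- strand), chr7:45921427-45921576 (- strand) and chr17:48432729-48432878 (- strand). The first T of TATAAA was 33, 30, 31, 40 and 34 bases before the start site in that order. On either strand and anywhere in the window of 250 bases before to 50 after the start, TATAAA was found in 9 of the 49 promoters (18.4%) and in 5.96% of all. The TCF/LEF letters CTTTGAT or CTTTGTT were found in 4 (8.16%, against 5.95%) and the AP-1 letters TGANTCA in 3 (6.12%, against 4.03%). The core letters of the CTCF motif were in none of the 49 windows and in 0.738% of all. With so low a share, none among 49 windows was the likely outcome, so nothing is read from it.

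Cilium and axoneme genes are represented here by 4, at 12.7 to 28.5% of WT in mESCs and 8.60 to 22.1% in EBs. Vwa3a was measured at 37.8 and 57.7 in WT mESCs and 5.95 and 6.15 in CTCF-K20R mESCs, then at 102 and 91.0 in WT EBs and 12.6 and 5.98 in CTCF-K20R EBs. Vwa3a, a von Willebrand factor domain gene, was at 12.7% and 9.63% of WT with no overlap between genotypes. Rsph4a had 138 and 139.9 normalized counts in the WT mESC libraries and 37.6 and 41.7 in the CTCF-K20R ones, and 321 and 327 in WT EBs against 22.8 and 32.9 in CTCF-K20R EBs. Rsph4a, a head protein of the radial spokes of motile cilia, was at 28.5% and 8.60%. Rpgrip1, a protein of the ciliary transition zone, was at 16.1% and 22.1% and the repeat protein gene Ttc16 at 25.003% and 18.5%.

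Lipid and mitochondrial metabolism are represented here by 2 genes, at 25.2 to 38.6% of WT in mESCs and 21.5 to 24.6% in EBs. The values of Mogat2 were 54.9 and 62.3 in WT mESCs, 21.3 and 23.96 in CTCF-K20R mESCs, 1085 and 1069 in WT EBs and 218 and 244 in CTCF-K20R EBs. Mogat2 makes diacylglycerol from monoacylglycerol, and its level in EBs was 21.5% of WT. In mESCs Micu2 stood at 284 and 283 in WT and at 69.2 and 74.0 in CTCF-K20R libraries, and in EBs at 1254 and 1254 and at 288 and 329. Micu2, a gatekeeper of the mitochondrial calcium uniporter, stood at about the same share of WT on both days (25.2% and 24.6%).

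Synaptic and neural adhesion genes numbered 5, counting with them D430041D05Rik, for which no such role is given here. They were at 26.6 to 36.2% of WT in mESCs and 1.77 to 29.5% in EBs. Both the 36.2% and the 1.77% are values of D430041D05Rik. Each of the 5 was at a lower share of WT in EBs than in mESCs. That direction was the more common one among all the genes described here, with the ratio lower in EBs for 43 and in mESCs for 25. For Cadps2, the mESC libraries gave 46.4 and 48.2 (WT) and 19.9 and 13.3 (CTCF-K20R), and the EB libraries gave 585 and 576 (WT) and 25.8 and 33.1 (CTCF-K20R). Cadps2, which primes dense-core vesicles for release, was at 35.1% and 5.07% of WT. D430041D05Rik was measured at 174 and 153 in WT mESCs and 53.6 and 64.4 in CTCF-K20R mESCs, then at 420.3 and 413 in WT EBs and 1.54 and 13.2 in CTCF-K20R EBs. D430041D05Rik, a protein-coding gene known by a clone name, was high in WT EBs and low in both CTCF-K20R EB libraries, which themselves differed several-fold. Pcdhga10 had 56.5 and 62.2 normalized counts in the WT mESC libraries and 14.01 and 17.6 in the CTCF-K20R ones, and 80.7 and 78.8 in WT EBs against 0 and 11.99 in CTCF-K20R EBs. Pcdhga10, a clustered protocadherin whose last exons are shared with the rest of the γ cluster, so that its reads are not its own alone, was at 0 in 1 CTCF-K20R EB library. Grin2c, an NMDA receptor subunit, was at 27.1% and 6.09%, and Pclo, a scaffold of the presynaptic active zone, at 35.6% and 29.5%. Of the 17 other clustered protocadherins tested, none was called in mESCs by limma (1 lower and 0 higher at an unadjusted p under 0.05) and 6 were called lower in EBs.

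Genes of RNA, DNA and nuclear processes numbered 7, at 15.4 to 39.8% of WT in mESCs and 19.6 to 36.9% in EBs. The values of Nynrin were 2340.3 and 2388 in WT mESCs, 716 and 768 in CTCF-K20R mESCs, 1450.2 and 1495 in WT EBs and 382 and 485 in CTCF-K20R EBs. Nynrin, which carries a retrovirus-derived integrase domain, was at 31.4% and 29.4% of WT. In mESCs Fignl2 stood at 259 and 264 in WT and at 109 and 99.3 in CTCF-K20R libraries, and in EBs at 1509 and 1503 and at 362 and 378. Fignl2, a fidgetin-like AAA ATPase, had the ratio nearest the limit in mESCs and a lower one in EBs. For Fkbp6, the mESC libraries gave 736 and 734 (WT) and 315 and 270.3 (CTCF-K20R), and the EB libraries gave 52.7 and 54.3 (WT) and 19.4 and 18.5 (CTCF-K20R). Fkbp6, an immunophilin-family protein of meiotic germ cells, was lower in EBs in both genotypes. Hist3h2a was measured at 61.3 and 59.8 in WT mESCs and 6.47 and 12.2 in CTCF-K20R mESCs, then at 78.5 and 81.0 in WT EBs and 12.6 and 18.6 in CTCF-K20R EBs. Hist3h2a encodes a histone H2A whose coding sequence is close to those of its many paralogs, so its values are uncertain. Apobec2 was at 16.8% and 36.9%, the splicing regulator Rbm20 at 33.5% and 35.2% and Pgbd5, derived from a piggyBac transposase, at 38.3% and 28.4%.

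Noncoding RNAs were 4 of the 68 genes, and Gm26751 was the lowest of all by the smaller of its differences. Gm26751 had 153 and 101 normalized counts in the WT mESC libraries and 0 and 0 in the CTCF-K20R ones, and 178 and 154 in WT EBs against 0 and 6.51 in CTCF-K20R EBs. It was at 0 in both CTCF-K20R mESC libraries, at least 38.2-fold lower than WT, and in the EBs 1 CTCF-K20R library was at 0 and the other above the limit. Gm26751 overlaps Nynrin on the opposite strand. Gm16973 was at 37.1% and 36.3% of WT, 4732440D04Rik at 35.0% and 36.4% and D430040D24Rik at 38.01% and 20.96%. The remaining 6 genes were at 17.4 to 38.5% of WT in mESCs and 12.1 to 35.2% in EBs. The values of Trim35 were 1895 and 1879 in WT mESCs, 626 and 691 in CTCF-K20R mESCs, 2129.9 and 2142 in WT EBs and 730.4 and 773 in CTCF-K20R EBs. Trim35, a ubiquitin ligase of the TRIM family, kept about the same share of WT on both days. The other five were Tmem260 (25.7% and 17.7%), a transmembrane protein, the ankyrin repeat gene Ankrd33b (38.5% and 12.1%), the keratin-related gene Krt222 (26.6% and 28.9%), the X-linked Fam120c (20.98% and 22.2%) and Fam189a1 (17.4% and 34.4%).

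The CTCF-K20R libraries of a day lay over 2-fold apart for 2 of the 68 genes in mESCs and for 7 in EBs. The widest gaps were those of Pcdhga10 (log2 ratio of the first to the second library -3.70), Gm26751 (-2.91), D430041D05Rik (-2.48), Glis1 (-2.07) and Plekha6 (1.62), all in EBs, and the higher library was not the same one in all of them.

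By position, 11 of the 68 genes (16.2%) were on chromosome 14, which held 3.54% of the genes that met the WT minimum, 7 were on chromosome 7 and 5 on the X (7.35%, against 3.37%). On chromosome 14, 9 of the 11 lay in 1 stretch from Txndc16 to Gulo (chr14:45133465-66009207, GRCm38): Tmem260, Rpgrip1, Homez, Nynrin, Gm26751, Gm16973, Micu2, Shisa2 and Spata13. Gulo, the last gene of the stretch, was itself at 101.5% of WT in mESCs and 158.0% in EBs. The stretch joins 2-Mb windows around Nynrin whose median log2 fold change in mESCs was at most -0.5, so the windows set its ends. The 187 other tested genes in it, which the ratio limit did not choose but the windows did for mESCs, had a median log2 fold change of -0.92 in mESCs (53.0% of WT) and -0.89 in EBs (53.9% of WT), and 179 of them were below 0 in mESCs and 167 in EBs. By limma, 56 of the 187 (29.9%) were called lower and none higher in mESCs (141 and 1 at an unadjusted p under 0.05), against 2.6% and 1.19% of all genes, and 68 (36.4%) were called lower and 6 higher in EBs, against 8.65% and 6.89%. The 360 tested genes on the rest of chromosome 14 had medians of 0.01 and -0.01. The stretch held 1.39% of the genes that met the WT minimum, 13.2% of the 68 genes, 10.3% of the 146 genes lower in mESCs only and 5.28% of the 492 lower in EBs only.

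The ratio limit itself places the 9 genes below the median of the other genes in the stretch, which was near 50% of WT. Genes outside the 68 could be as low on a single day, such as Rnf17 (log2 fold change -2.15 in mESCs and -0.97 in EBs). The 9 genes had median log2 fold changes of -1.94 in mESCs and -2.02 in EBs, and the 59 genes elsewhere had -1.72 and -2.18. Of the 164 genes in the stretch that met the WT minimum, 5.49% were among the 68. DNA of the cells was not analysed here, so the number of copies of the stretch and the RNA made per copy cannot be told apart. Trim35 lies just beyond the end of the stretch, and 3 genes near it, outside the 68, were called lower in mESCs (Ephx2, Ptk2b and Pnma2). Ephx2, an epoxide hydrolase, had 3711 and 3728 normalized counts in WT and 457 and 450.1 in CTCF-K20R mESCs (log2 fold change -3.03, SE 0.108, adjusted p = 0.000731 by limma with Benjamini-Hochberg adjustment). Ptk2b, a tyrosine kinase, had 179.7 and 175 and 48.6 and 39.0 (log2 fold change -1.999, SE 0.246, adjusted p = 0.00749). Pnma2 had means of 416 in WT and 117 in CTCF-K20R mESCs (log2 fold change -1.84, adjusted p = 0.00666), and Dpysl2, between Trim35 and Pnma2, was at 51.2% of WT in mESCs (log2 fold change -0.96, adjusted p = 0.0186), short of the fold limit. Bnip3l and Ppp2r2a, which follow Pnma2, were at 104.6% and 108.4% of WT in mESCs. In EBs Ptk2b and Pnma2 were not called (log2 fold changes 0.22 and 0.39).

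**Figure D4:**
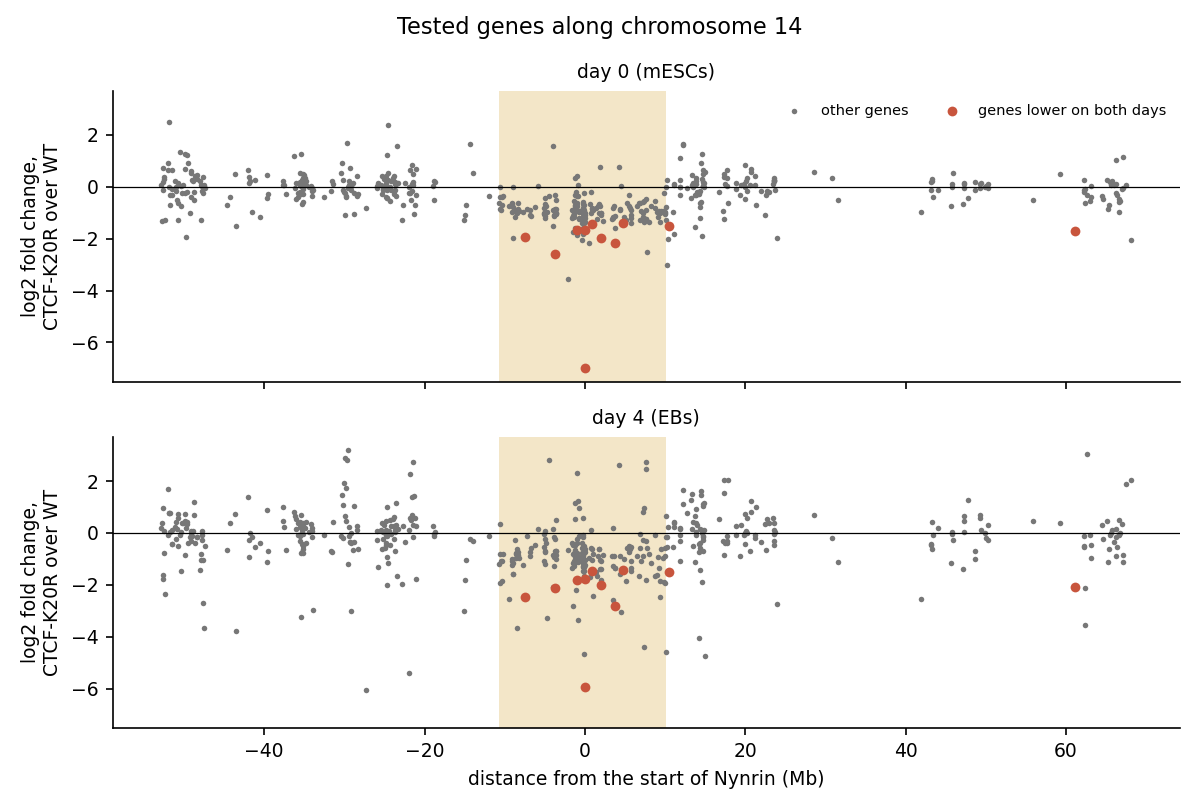
CTCF-K20R against WT log2 fold change along chromosome 14 in mESCs and EBs, with 1 point for each tested gene and the genes strongly lower on both days in colour. The points of the stretch sit around -0.9 on both days, close to 50% of WT. The 9 coloured genes of the stretch lie below that level, as the ratio limit requires. Trim35 (-1.52 and -1.51) and Gpc6 (-1.72 and -2.08), coloured and outside the stretch, also lie below it. The 360 tested genes on the rest of the chromosome have medians of 0.01 in mESCs and -0.01 in EBs.

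The 5 tested genes on each side of each of the 68 genes gave 641 flanking genes outside the 68. In mESCs 36 of them (5.62%) were called lower and 6 higher, and in EBs 76 (11.9%) were called lower and 48 (7.49%) higher. Without chromosome 14, 12 of 552 (2.17%) were called lower in mESCs, near the 2.6% of all genes, and 52 (9.42%) lower and 46 (8.33%) higher in EBs, near 8.65% and 6.89%. On chromosome 14, 24 of 89 (27.0%) were called lower on each day. Leaving out either CTCF-K20R mESC library left 21 lower and 3 higher calls in mESCs, and leaving out the first CTCF-K20R EB library left 47 lower and 31 higher calls in EBs (29 higher without the second). The 10 flanking genes of T had a median log2 fold change of -0.35 in mESCs, where none was called, and -1.16 in EBs, where 4 were called lower. Those of Pcdhga10, itself in a gene cluster, had -0.28 and -1.82, with 5 called lower in EBs. For 31 of the 68 genes the median of the flanking genes was within 0.25 of 0 on both days.

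Among flanking genes outside chromosome 14, Cer1, a secreted antagonist of NODAL and BMP whose start is 16.2 kb from that of Frem1, had the lowest called value in EBs. For Cer1, the mESC libraries gave 2.27 and 1.90 (WT) and 0 and 1.103 (CTCF-K20R), and the EB libraries gave 7907 and 7871 (WT) and 8.01 and 8.76 (CTCF-K20R) (log2 fold change -9.72, SE 0.593, adjusted p = 0.000231 in EBs, by limma with Benjamini-Hochberg adjustment). Cer1 was under the limit of detection in all 4 mESC libraries, so it did not qualify for the 68. The WT EB values of Sohlh2 below are also under that limit, so its fitted value in EBs depends on the pseudocount. Beside Dclk1, Sohlh2, a germ cell transcription factor gene 60.3 kb away, was higher in CTCF-K20R cells where Dclk1 was lower. The values of Sohlh2 were 356 and 345 in WT mESCs, 1147 and 1265 in CTCF-K20R mESCs, 0.960 and 1.62 in WT EBs and 47.0 and 39.5 in CTCF-K20R EBs (log2 fold change 1.78, SE 0.226, adjusted p = 0.00833 in mESCs and log2 fold change 4.27, SE 0.226, adjusted p = 0.000154 in EBs). Acvrl1, an activin-like receptor 78.3 kb from Fignl2, was called lower in mESCs (log2 fold change -2.07, SE 0.469, adjusted p = 0.0405), and Tuba3a, a testis tubulin 28.3 kb from Ltbr, was called higher (log2 fold change 1.75, SE 0.193, adjusted p = 0.00567). The other genes named by their called values were farther off, such as Scml2, a Polycomb-related gene 716 kb from Nhs on the X (log2 fold change 3.02, SE 0.277, adjusted p = 0.00321). The start of Cd36 was 3267 kb from that of Pclo.

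Besides Cdkn1c and Phlda2, and Nynrin and Gm26751, Mogat2 and Serpinh1 were neighbours, 106.8 kb apart on chromosome 7. Between them lie Gm26705, which was not called on either day (log2 fold changes 0.10 and 0.43), and Map6, a microtubule-stabilizing protein gene. Map6 was measured at 248 and 236 in WT mESCs and 386 and 288 in CTCF-K20R mESCs, then at 21.8 and 25.1 in WT EBs and 276 and 212 in CTCF-K20R EBs. Map6 was thus called higher in EBs (log2 fold change 3.31, SE 0.262, adjusted p = 0.000536) between genes that were lower. On the far side, Gdpd5 was called lower in EBs (log2 fold change -2.90, SE 0.408, adjusted p = 0.00374) and had a log2 fold change of -0.04 in mESCs.

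Relatives were genes that shared a symbol stem with 1 of the 68 genes, and 358 were tested in 39 families. In mESCs 12 of the 358 (3.35%) were called lower and 7 (1.96%) higher, and in EBs 53 (14.8%) were called lower and 29 (8.10%) higher, beside 2.6%, 1.19%, 8.65% and 6.89% of all genes. The glypicans had 3 of 4 relatives of Gpc6 called lower in EBs (Gpc2, Gpc3 and Gpc4), and the radial spoke genes 3 of 5 relatives of Rsph4a (Rsph3a, Rsph3b and Rsph9). Of 34 other collagen genes, 10 were called lower and 5 higher in EBs, with Col13a1 (log2 fold change -6.83, SE 0.412, adjusted p = 0.000225) the lowest and Col3a1 (log2 fold change 3.00, SE 0.911, adjusted p = 0.0473) the highest. Among 16 other genes with the Rgs stem, regulators of G protein signalling for the most part, 4 were called lower and 2 higher in EBs, and Rgs5 had the lowest value, with 386 and 385 normalized counts in WT and 4.00 and 1.94 in CTCF-K20R EBs (log2 fold change -6.65, SE 0.725, adjusted p = 0.00154). None of 11 other POU genes was called lower in EBs by limma (1 at an unadjusted p under 0.05) and 3 were called higher, among them Pou3f1 (3.54, adjusted p = 8.51e-05) and Pou4f2 (3.14, adjusted p = 0.00455). Leaving out 1 CTCF-K20R library at a time left 6 lower calls and 1 higher call in mESCs (either library), and 33 lower and 16 higher calls in EBs (the first library; 18 higher without the second). Neither of the other D-type cyclins was called in EBs, where Ccnd2 was near 20% of WT, although both were lower at an unadjusted p under 0.05.

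Gene lists that hold some of the 68 were also read without them, and some lists that hold none are given beside them. All 9 other primitive streak and mesoderm genes were called lower in EBs by limma. In mESCs none was called lower (0 at an unadjusted p under 0.05) and 1 (Gsc) was called higher, but most of the 9 were too low in WT mESCs to be called lower, with Lhx1 at a mean of 0, Mesp1 at 1.04, Msgn1 at 1.05, Gsc at 5.31 and Mixl1 at 8.21. Besides T, the WT minimum of 30 in mESCs was met by Eomes (316 in WT and 449.6 in CTCF-K20R mESCs) and Pdgfra (43.8 and 51.5) alone. Of 70 other extracellular matrix genes, 4 were called lower in mESCs (Lamb1, Itga1, Lamc3 and Itgam), and 13 were called lower and 10 higher in EBs. Of 11 naive pluripotency genes, 1 was called lower in mESCs (Tdh), and 2 were called lower and 6 higher in EBs. Of 10 genes of CTCF and cohesin, none was called in mESCs (1 lower and 4 higher at an unadjusted p under 0.05) and 1 was called higher in EBs (Ctcfl, the germ cell paralog of CTCF). Calls of lower in EBs were not particular to the primitive streak and mesoderm list. They were made for 4 of 4 definitive endoderm, 2 of 3 extraembryonic endoderm and 5 of 7 trophoblast genes, against 8.65% of all genes. By contrast, 3 of 6 primed epiblast and 2 of 4 neuroectoderm genes were called higher in EBs and none lower. Bulk RNA does not show which cells these calls came from, so the lists do not separate cell types.

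The 68 genes were also compared between mESCs and EBs within CTCF-K20R cells. The selection did not compare the days, but it held the same CTCF-K20R values under the WT values of each day. The test is therefore not independent of the selection. The shares of all genes tested, given beside the calls, include genes under the WT minimum. Within CTCF-K20R, 28 of the 68 genes were called higher on day 4 than on day 0 by limma with Benjamini-Hochberg adjustment over all genes (14.5% of all genes tested), 11 were called lower (11.6%) and 29 were not called. In WT, where each day counts as 1 sample and no test was made, 36 of the 68 were at least 2-fold higher on day 4 (12.5% of the genes that met the WT minimum) and 9 at least 2-fold lower (11.6%). Of the 36, 26 were called higher, 9 were not called and 1 (D430041D05Rik) was called lower within CTCF-K20R, and of the 9, 7 were called lower and 2 were not called. The like shares for other genes that moved in WT are not given here, so the match is not read as particular to the 68 genes. The median log2 change from day 0 to day 4 was 1.19 in WT and 0.65 in CTCF-K20R, and -0.01 in both for the 11827 genes. Without a test, 30 of the 68 were at least 2-fold higher within CTCF-K20R (10.5% of the 11827) and 12 at least 2-fold lower (9.16%). A share of 52.9% at least 2-fold higher on day 4 in WT compares with 34.9% of the 146 genes lower in mESCs only and 58.5% of the 492 lower in EBs only.

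Among the genes that rose within CTCF-K20R, Amot rose by 5.17 (SE 0.170, adjusted p = 1.23e-05) on the log2 scale against 7.98 in WT, and T by 4.34 (SE 0.111, adjusted p = 6.00e-06) against 8.14 in WT. The starting level of both was low, and in WT the difference corresponded to 255.8-fold for Amot and 285.3-fold for T. Dclk1 rose by 4.41 (SE 0.286, adjusted p = 0.000109), Ccnd2 by 4.15 (SE 0.314, adjusted p = 0.00019) and Gpc6 by 3.51 (SE 0.245, adjusted p = 0.000143). Lef1 had the same log2 change in both genotypes, 3.39. Cadps2 had a log2 change of 3.59 in WT and of 0.80 (SE 0.312, adjusted p = 0.0724) in CTCF-K20R, where it was not called. Col23a1 (2.82 in WT and 0.45 (SE 0.367, adjusted p = 0.338) in CTCF-K20R) and Grin2c (1.62 and -0.50 (SE 0.260, adjusted p = 0.154)) were likewise not called. A difference in day change between the genotypes is the same quantity as the difference between the ratios of the days that chose the genes, and it was not tested.

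Among the genes that fell within CTCF-K20R, Fos changed by -4.27 (SE 0.155, adjusted p = 1.67e-05) on the log2 scale against -3.29 in WT, and Fkbp6 by -3.88 (SE 0.184, adjusted p = 3.75e-05) against -3.76. Tgfbi changed by -3.48 (SE 0.245, adjusted p = 0.000145), and the matrix gene was low in EBs of both genotypes. D430041D05Rik changed by -3.32 (SE 0.789, adjusted p = 0.0147) within CTCF-K20R while its WT level was higher on day 4 (log2 change 1.35), and its CTCF-K20R libraries were unequal in EBs. Apobec2, Cmklr1, Ankrd33b, Il2rg, Igfals and Rpgrip1 were also called lower. Smoc1 had a log2 change of -1.47 in WT and 0.28 (SE 0.151, adjusted p = 0.169) in CTCF-K20R, where it was already low in mESCs.

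**Figure D5:**
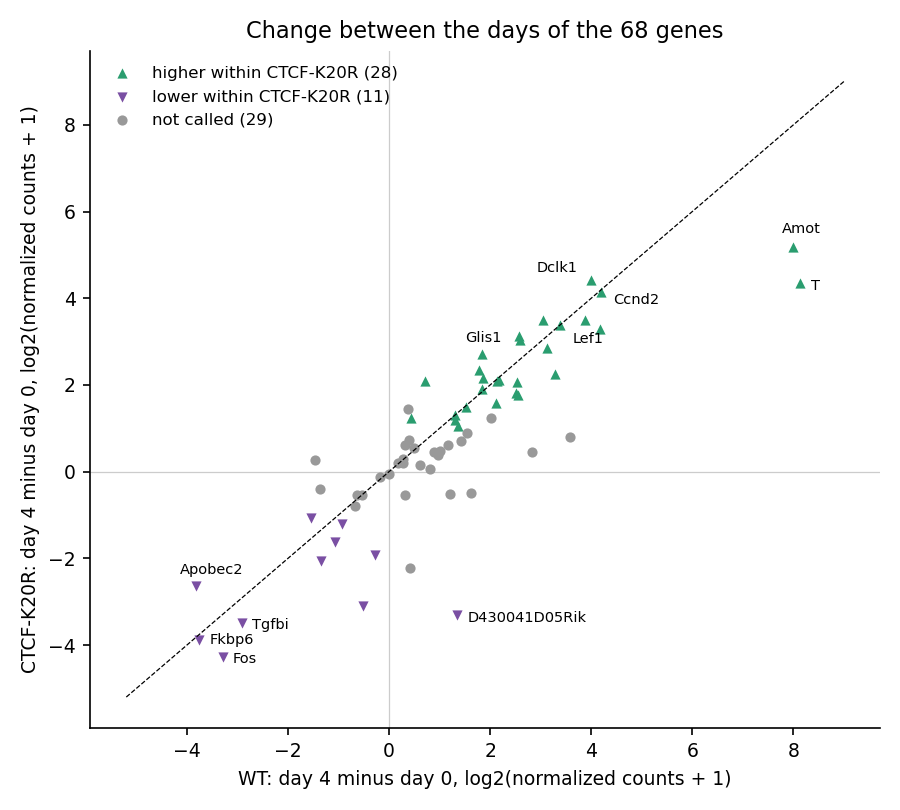
log2 change from day 0 to day 4 in WT (x axis, 1 sample a day) against that within CTCF-K20R (y axis, limma) for the 68 genes, coloured by the call within CTCF-K20R. Most of the 68 that were at least 2-fold higher on day 4 in WT were also called higher within CTCF-K20R. The like share for other genes is not given. Amot and T lie at the far right with smaller changes in CTCF-K20R, and D430041D05Rik lies at the lower right.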

How the data were processed

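mESCs (day 0) and EBs (day 4) of both genotypes were measured by RNA-seq, with 2 libraries per genotype and day. Groups and library numbers came from the sample titles. After trimming with Trim Galore, the authors ran salmon for transcripts of mm10, obtained gene counts through tximport and scaled them in DESeq2. What they deposited is a signal, the normalized count of each gene in each library, and whole reads could not be recovered from them, so no count model was used. The annotation release and the use of strand in the counting were not given in the sources used here. All value columns matched a sample (0 did not).

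The 68 genes, the gene lists and the tests were chosen with earlier results of these data known. The 15767 genes whose mean over the 8 libraries reached 10 normalized counts entered limma 3.58.1 (R 4.3.3) as log2(value + 1), with a mean-variance trend and Benjamini-Hochberg adjustment. A call needed an absolute log2 fold change over 1 and an adjusted p under 0.05. Fold changes on this scale understate those of low genes. The WT libraries of a day were averaged, which left 6 samples, 2 residual degrees of freedom and 3.51 prior degrees of freedom. The design first written kept all 8 libraries as separate samples, and it is given as an alternative. The fit was tested on simulated data. The log2 differences between the paired CTCF-K20R libraries correlated at -0.04 between days, so library numbers pair nothing.

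Genotypes were contrasted on each day and between the days (interaction), and day 4 was contrasted with day 0 within CTCF-K20R. Positions are those of GENCODE vM21 (GRCm38), which held 15664 of the 15767 genes tested, and promoters those of RefSeq (GRCm38.p6). Since only 49 of the 68 genes (72.1%) had a promoter entry, under the 80% needed, the check of GC and CpG content is void. Genes were named by rule: the 15 highest in WT, the 10 lowest by the smaller difference, neighbours of one another, members of a gene list, the 3 on each side of the ratio limit, the 5 largest rises and falls between the days within CTCF-K20R, the 5 with the most unequal CTCF-K20R libraries, and the 5 largest called rises and falls of flanking genes and relatives on each day. The other members are named to account for them, apart from 3 of the 68 that are not reported here, and Map6, Gdpd5, the genes that follow Trim35, the Kcnq1 domain genes and the pluripotency genes were named after their values were seen. Python 3.11.15 with pandas 2.3.3 and matplotlib 3.10.9 read the files and drew the plots. The alternatives were other pseudocounts, minimums, ratio limits, normalization, fits without a library, without a trend or with a replicate block, and calls on adjusted p alone.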

Additional observations from a re-analysis of the deposited data

Results flagged for a closer look

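Of the 39 flanking genes and relatives named for their called values, 25 had a difference between CTCF-K20R and WT that itself differed between mESCs and EBs (interaction of limma with Benjamini-Hochberg adjustment). The value given for each is the log2 fold change in EBs minus that in mESCs. None of the 68 genes was tested in this way, since their ratios on both days chose them. The 39 genes were themselves picked as the most extreme called on a given day, which favours a difference between the days. The count of 25 is therefore a description, and the share of such differences over all tested genes is not given here.

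In the chromosome 14 stretch (Rnf17) and just beyond its end (Ephx2 and Ptk2b), the values were Ephx2 2.496 (adjusted p = 0.000535), Rnf17 1.18 (adjusted p = 0.0129) and Ptk2b 2.22 (adjusted p = 0.00899), and all 3 genes were called lower in CTCF-K20R mESCs. In EBs the log2 fold changes were -0.97 for Rnf17, -0.54 for Ephx2 and 0.22 for Ptk2b (adjusted p = 0.521). Ephx2 was at means of 3719 and 454 in WT and CTCF-K20R mESCs and of 247 and 170.4 in EBs.

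Other flanking genes lower in CTCF-K20R EBs than in mESCs, relative to WT, were Cer1 -8.63 (adjusted p = 0.00197), Cd36 -6.73 (adjusted p = 0.00562), Iqub -5.08 (adjusted p = 0.022), Scml2 -5.52 (adjusted p = 0.000815) and RP24-181G14.2 -1.87 (adjusted p = 0.0158). Their starts lay from 16.2 kb (Cer1) to 3267 kb (Cd36) from that of the nearest of the 68 genes. Scml2 was higher in CTCF-K20R mESCs (log2 fold change 3.02) and lower in CTCF-K20R EBs (-2.50), whereas RP24-181G14.2 was higher on both days. Those with the opposite difference were Sohlh2 2.49 (adjusted p = 0.00477), Miat 3.48 (adjusted p = 0.00223), 4833407H14Rik 3.50 (adjusted p = 0.0274), Aass 4.92 (adjusted p = 0.000535) and Tex11 2.52 (adjusted p = 0.0109). Aass, 190.6 kb from Cadps2, had 319.7 and 314 normalized counts in WT and 126 and 120 in CTCF-K20R mESCs, and 16.2 and 16.8 in WT and 189 and 222 in CTCF-K20R EBs, so its direction turned between the days.

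Among relatives by name, the lower values in EBs were Col13a1 -6.64 (adjusted p = 0.00142), Rgs5 -7.14 (adjusted p = 0.00689), Col19a1 -5.73 (adjusted p = 0.0239), Col9a1 -4.73 (adjusted p = 0.0173) and Efhc2 -2.14 (adjusted p = 0.0234). The higher ones were Pou4f2 3.84 (adjusted p = 0.0122), Pou3f1 3.50 (adjusted p = 0.00049), Rbm44 3.05 (adjusted p = 0.00981) and Apobec1 3.02 (adjusted p = 0.027), and Spata31d1a 3.34 (adjusted p = 0.0223), Rgs7bp 2.64 (adjusted p = 0.0252) and Ttc7 1.89 (adjusted p = 0.00394), of which the last 3 were called lower in mESCs. Pou3f1 was at 253 and 258 normalized counts in WT and 3033 and 2921 in CTCF-K20R EBs, and at 48.2 to 54.6 in the 4 mESC libraries.

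Cd36 and Col9a1 were at 0 in all 4 mESC libraries, and Cer1, Rgs5 and Col19a1 were under the limit of detection there. The fitted values of genes at or near 0 on one day depend on the pseudocount.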

How the results depend on the processing

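The choice of the 68 genes depends on its limits. With a pseudocount of 10 in the ratio 44 genes qualified, with a WT minimum of 10 or 100 it was 125 or 29, with a ratio limit of 0.33 or 0.5 it was 31 or 148, and with every CTCF-K20R library held to 0.4 of every WT library it was 42. Leaving out 1 library number of a genotype gave 65 to 74 genes, 55 to 66 of them shared with the 68. Of 254 alternative values over 26 results, 178 stayed within the limits set for a change and 76 moved. Counts have no direction, so only medians could turn, and 0 did. The ratio limit largely fixed the direction of the medians of the 68 genes between genotypes.

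Call counts are printed in the order lower and higher. For all genes in mESCs (410 and 188), treating all 8 libraries as separate samples gave 903 and 445, no variance trend gave 33 and 23, and adjusted p alone gave 1194 and 1235. Adjusted p alone gave 2934 and 3395 in EBs (1364 and 1087) and 4506 and 4715 between the days within CTCF-K20R (1833 and 2284). For flanking genes in mESCs (36 and 6), the same settings gave 59 and 12, 1 and 2, and 95 and 27, and 12 were lower without chromosome 14. Adjusted p alone gave 151 and 124 in EBs (76 and 48). For relatives in mESCs (12 and 7), they gave 32 and 13, 0 and 0 (49 and 40 at an unadjusted p under 0.05), and 22 and 21, while no filter gave 5 and 2 and a minimum mean of 50 gave 4 higher. Without a trend, none of the 187 genes in the chromosome 14 stretch was called lower in mESCs (136 at an unadjusted p under 0.05), and 53 were in EBs. Adjusted p alone gave 84 and 75 for relatives in EBs (53 and 29).

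The ranges without 1 library were 222 to 415 and 87 to 200 for all genes in mESCs, 869 to 1367 and 721 to 1107 in EBs, and 1592 to 1680 and 1780 to 2185 within CTCF-K20R. They were 21 to 36 and 3 to 6 for flanking genes in mESCs, 47 to 75 and 29 to 50 in EBs, 6 to 13 and 1 to 7 for relatives in mESCs, and 33 to 55 and 16 to 30 in EBs. The calls of the 68 genes between the days within CTCF-K20R ranged over 24 to 28 higher and 8 to 10 lower. Library numbers did not pair the libraries, and the replicate block gave 4 higher relatives in mESCs, with every other count within 1.5 times.

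For the 68 genes in mESCs, the median (log2 fold change -1.69) became -1.44 with a pseudocount of 10, -1.57 after quantile normalization and -1.76 to -1.72 without a library. In EBs (-2.11) it was -2.17, -1.82 and -2.01 with pseudocounts of 0.1 and 10 and quantile normalization. The median day change in WT (1.19) was 1.197, 1.14 and 1.00 under these, and 1.24 without either WT library. That within CTCF-K20R (0.65) ran from 0.54 to 0.83 without a library. Flanking medians (-0.12 and -0.06) were -0.159 and -0.122 with 2 genes a side and -0.0914 and -0.0729 with 10. Directly adjacent members numbered 2 in place of 6 lying near each other. With the limit at 1 read, 1 gene in mESCs and 0 in EBs were at or under it (2 and 1 with 3 reads). The cause of these shifts was not tested. Depth limits the members whose CTCF-K20R level is at the limit of detection, such as Gm26751 and Glis1. The alternative for promoter CpG content gave no value, since its check is void.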
